A study of Mus musculus with 9 samples.

Results

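Early neuron differentiation genes were examined in mouse embryonic stem cells (ESCs) in which a forced homodimer of the transcription factor E2A was switched on. The group was defined by name and holds 10 genes, Tubb3, Dcx, Map2, Stmn2, Stmn3, Elavl3, Elavl4, Ncam1, Gap43 and Insm1, of the 47729 genes with an expression value. The ESC line carried a doxycycline (dox)-inducible transgene for FLAG-tagged mouse E47, an E2A protein, tethered through a flexible linker to another copy of E47, and it was grown on gelatin in LIF/serum, a medium that maintains self-renewal. Cells without dox (0 h) were compared with cells kept for 18 h and 24 h in medium with 1 µg/ml dox. Each of the 3 time points had 3 biological replicates, and the cells of all 9 libraries carry the transgene. Cells that received dox without the transgene were not analysed here, so the dimer cannot be told apart from dox itself or from time in culture. Expression is given as FPKM, fragments per kilobase of transcript scaled to the number of reads mapped, which allows levels of different genes to be compared per length. The times are those of the sample titles and treatment labels, and another field of the labels names different times for the dox samples. The comparisons address whether genes of the young neuron were already altered within a day of E2A dimer induction under conditions of self-renewal.

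Neurons leave the cell cycle with a characteristic set of proteins. A neuron-specific tubulin and its partners (Map2, Dcx and the stathmins) shape the microtubules of growing neurites, Gap43 and Ncam1 work at the growth cone and cell surface, the RNA-binding proteins Elavl3 and Elavl4 (HuC and HuD) stabilise neuronal transcripts, and the zinc-finger factor Insm1 acts in newborn neurons and in endocrine precursors. E2A is a basic helix-loop-helix protein, and such proteins bind as dimers to the E-box, a short DNA word that reads CANNTG on both strands. In neural precursors, E proteins are known as the common dimer partners of proneural factors.

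The promoters of the members differed in E-box content. RefSeq start sites (GRCm38.p6) gave 10 windows of 300 bases, from 250 before to 50 after the start, for 6 of the 10 members, namely Tubb3, Dcx, Map2, Stmn3, Elavl3 and Elavl4. Windows for Stmn2, Ncam1, Gap43 and Insm1 were not used here. The windows of Tubb3, Map2 and Dcx held no CANNTG, that of Stmn3 held 1 and that of Elavl3 held 2, and 3 of the 4 Elavl4 windows held 4, 4 and 1, of which the first pair overlap and share the same 4. Among 32851 promoter windows of the same length, 72.3% held at least 1 CANNTG, 16.3% held CAGCTG and 20.2% held CACCTG or its reverse complement CAGGTG. Those of Tubb3, Elavl3 and Elavl4 are shown in lower case with every CANNTG in capitals, because with 0, 2 and 4 E-boxes they span the range found among the members.
Tubb3, chr8:123411303-123411602, plus strand: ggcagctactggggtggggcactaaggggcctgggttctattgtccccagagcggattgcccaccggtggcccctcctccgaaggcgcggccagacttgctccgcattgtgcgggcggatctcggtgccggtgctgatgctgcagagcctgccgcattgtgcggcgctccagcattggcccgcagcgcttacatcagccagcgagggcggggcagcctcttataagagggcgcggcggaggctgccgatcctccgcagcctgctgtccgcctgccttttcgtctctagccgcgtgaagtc
Elavl3, chr9:22051974-22052273, minus strand: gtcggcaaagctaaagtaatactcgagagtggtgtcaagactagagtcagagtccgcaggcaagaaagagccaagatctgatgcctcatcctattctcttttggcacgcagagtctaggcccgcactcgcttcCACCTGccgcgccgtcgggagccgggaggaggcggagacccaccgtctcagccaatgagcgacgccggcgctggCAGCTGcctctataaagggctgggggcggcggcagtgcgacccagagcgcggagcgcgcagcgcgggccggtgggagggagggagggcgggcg
Elavl4, chr4:110287478-110287777, minus strand: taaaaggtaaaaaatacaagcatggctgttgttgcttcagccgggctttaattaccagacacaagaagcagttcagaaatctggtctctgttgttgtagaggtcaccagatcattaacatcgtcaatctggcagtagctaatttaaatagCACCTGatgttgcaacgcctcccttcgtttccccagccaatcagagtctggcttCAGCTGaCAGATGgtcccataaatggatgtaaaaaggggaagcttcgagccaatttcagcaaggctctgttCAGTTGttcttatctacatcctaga
In the Elavl3 window CACCTG began 117 bases and CAGCTG 43 bases before the start. In this Elavl4 window CACCTG began 100 bases, CAGCTG 46 bases and CAGATG 39 bases before the start, and CAGTTG began 25 bases after it. A match is a stretch of letters and was not tested for binding.

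The libraries expressed the markers of the labelled cell type. The pluripotency genes Pou5f1, Nanog, Sox2, Zfp42, Esrrb, Klf4, Dppa5a and Fgf4 summed to 1186 to 1853 FPKM at 0 h, 975 to 1563 FPKM at 18 h and 935 to 1543 FPKM at 24 h. Of these, Fgf4 was called downward at both times (log2 fold changes -1.04 and -1.25, adjusted p = 0.0405 and 0.0170), and by the adjusted p alone Pou5f1 fell by 0.58 and Nanog rose by 0.86 at 24 h (adjusted p = 0.0220 and 0.00735). Depth ranged from 22028363 to 26471569 reads on genes per library. Tcf3, the gene that encodes E2A, rose from 39.1 to 110 FPKM at 18 h and 102 FPKM at 24 h, a value that sums endogenous and transgene reads. Of markers of mature neurons, Rbfox3, Snap25, Syt1, Syp, Slc17a6 and Gad1 together gave 2.05 to 2.40 FPKM in a library at 0 h, 1.55 to 1.77 FPKM at 18 h and 2.03 to 2.29 FPKM at 24 h. Of the 5 of these tested, 1 was called, Gad1, which rose from 0.0681 ± 0.0165 to 0.297 ± 0.130 FPKM at 24 h (log2 fold change 1.19, adjusted p = 0.0377), while Rbfox3 had a log2 fold change of -0.80 (adjusted p = 0.133). The 0 h mean of Gad1 is below the minimum of 0.1 FPKM for testing, so Gad1 was tested because of its dox libraries, and 2.9% of all genes tested were called at 24 h. Neural progenitor markers summed to 29.4 to 43.7 FPKM at 0 h, 42.2 to 60.2 FPKM at 18 h and 36.9 to 57.8 FPKM at 24 h, most of it Nes, which did not pass (log2 fold change 0.38 at 24 h, adjusted p = 0.270). Of the 4 of these 6 markers that were tested, 1 was called, Sox1, which rose from 0.351 ± 0.179 to 2.46 ± 0.920 FPKM at 24 h (s.d., n = 3; log2 fold change 2.505, adjusted p = 0.00496). Pancreatic and enteric endocrine markers, which share Insm1, summed to 1.25 to 2.19 FPKM at 0 h and 2.24 to 2.81 FPKM at 24 h, with Ins1 and Gcg listed at 0 in every library. Of the 3 of these tested, 0 were called at 24 h in the fit without the replicate number as a block. With that block 1 was called, upward, when 3.51% of all genes tested were called in either direction. Their median log2 fold change at 24 h was 0.47. Glial markers summed to 2.40 to 2.82 FPKM at 0 h and 3.06 to 3.22 FPKM at 24 h, and fibroblast markers to 7.07 to 14.4 and 6.07 to 10.4 FPKM. The part of these cell types in the values of the members was not tested.

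Untreated ESCs already contained transcripts of the group at very unequal levels. Tubb3, the neuronal beta-tubulin recognised by the Tuj1 antibody, was the most abundant at 0 h with 41.5 ± 6.49 FPKM (s.d., n = 3), above 91.6% of the genes tested. Stmn2, a stathmin that destabilises microtubules in growing neurites, followed with 27.9 ± 1.61 FPKM, and the growth-cone phosphoprotein gene Gap43 with 21.1 ± 2.84 FPKM. Elavl3 and Stmn3 lay in the middle of the distribution at 2.82 ± 0.367 and 2.40 ± 0.179 FPKM, above 48.4% and 45.9% of the genes tested. Insm1, Elavl4, Map2 and Ncam1 formed a lower tier at 1.10 ± 0.295, 0.797 ± 0.127, 0.740 ± 0.0358 and 0.710 ± 0.197 FPKM. Dcx, which encodes the microtubule-binding protein doublecortin of migrating neurons, stood apart at 0.0191 ± 0.00706 FPKM, which rested on 7, 7 and 3 reads. In this order the libraries of Elavl3 and Stmn3 overlapped, as did those of each pair of neighbours from Insm1 to Ncam1, whereas the other neighbours did not overlap. In these bulk libraries, fewer cells that express a gene cannot be told apart from less RNA per cell.

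**Figure D1:**
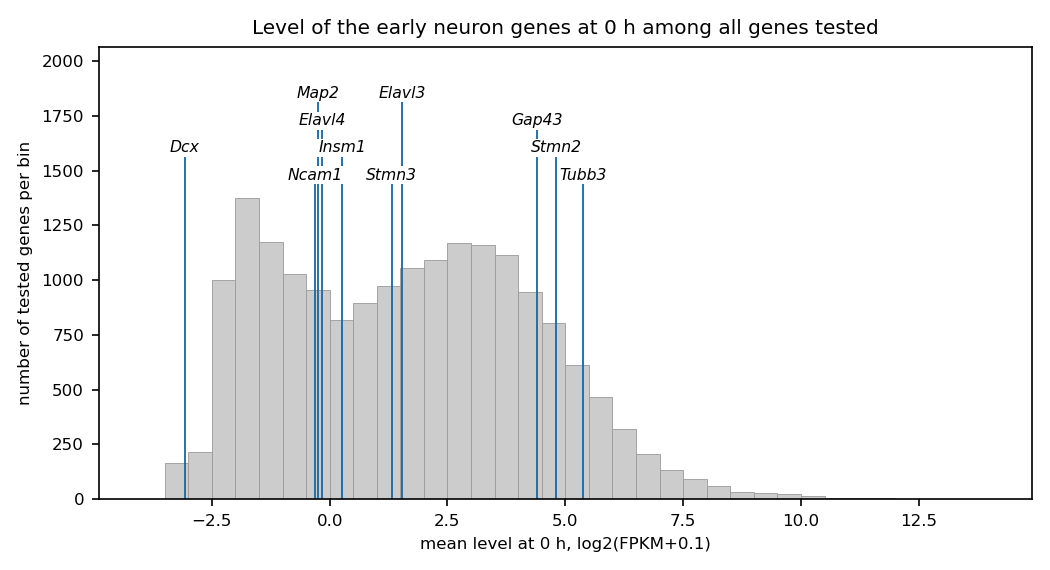
Mean level of each member at 0 h (blue lines, log2(FPKM+0.1), n = 3 libraries) over a histogram of the 17951 genes tested, in bins of 0.5. Tubb3, Stmn2 and Gap43 sit in the upper part of the distribution at 41.5, 27.9 and 21.1 FPKM, and Dcx at its lower edge at 0.0191 FPKM.

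The order at both ends of the group was the same in dox. Tubb3, Stmn2 and Gap43 held the top 3 places at 18 h and 24 h as well, and Dcx the last. The distance between Tubb3 and Stmn2 grew, since the ratio of their means was 1.49 without dox, 2.74 after 18 h and 2.72 after 24 h. The libraries of Insm1 overlapped those of Elavl3 at 18 h and those of Stmn3 at 24 h, which was not so at 0 h. Its mean was still below those of Stmn3 and Elavl3 at both times.

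The changes were small and went in both directions. Of the 10 members, 9 passed the filter of a mean FPKM of at least 0.1 and were tested with limma, and Dcx did not pass. A gene was called if its adjusted p (Benjamini–Hochberg) did not exceed 0.05 and its log2 fold change was at least 1 in either direction. By this rule 0 of 9 members were called at 18 h and 0 of 9 at 24 h, where 2.06% and 2.9% of all genes tested were called. At an unadjusted p below 0.05 there were 3 of 9 members at 18 h and 5 of 9 at 24 h, beside 25.4% and 28.2% of all genes tested. edgeR and DESeq2, both run on reads recovered from the scaled values, also called 0 members past both thresholds, where edgeR called 3.03% and 4.06% and DESeq2 3.39% and 4.28% of the genes each tested at 18 h and 24 h. The estimates ran from -0.38 to 0.75 at 18 h and from -0.52 to 0.88 at 24 h, with a median of -0.06 and -0.02, beside -0.00303 and 0.00403 over all genes tested. In both comparisons 4 of the 9 estimates were above 0 and 5 below.

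In 7 of the 10 members the same replicate number was highest, or the same was lowest, at all time points, and each comparison was also fitted with the replicate number as a block. The share of all genes tested that kept such an order was not computed. Such pairing was not particular to the members. Across 11893 genes, deviations from the group means correlated in all 9 same-numbered pairs (r = 0.211 to 0.548). Tubb3 and Elavl3 were highest in replicate 1 at all 3 time points, Gap43 and Ncam1 were lowest in replicate 1 at all 3, Insm1 and Elavl4 were lowest in replicate 3 at all 3, and Stmn2 was highest in replicate 3 at all 3. Map2, Stmn3 and Dcx kept neither. By the adjusted p alone, without a minimum fold, the fit without the block gave 0 members up and 1 down at 18 h and 0 in either direction at 24 h, when 4.27% of all genes tested passed upward and 3.72% downward at 18 h, and 6.52% and 5.11% at 24 h. With the block, 2 members were up and 3 down at 18 h, and 2 up and 2 down at 24 h. The block also raised the share of all genes tested that passed, to 10.8% upward and 10.7% downward at 18 h and to 13.6% and 12.5% at 24 h. With the block still no member passed the minimum fold.

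**Figure D2:**
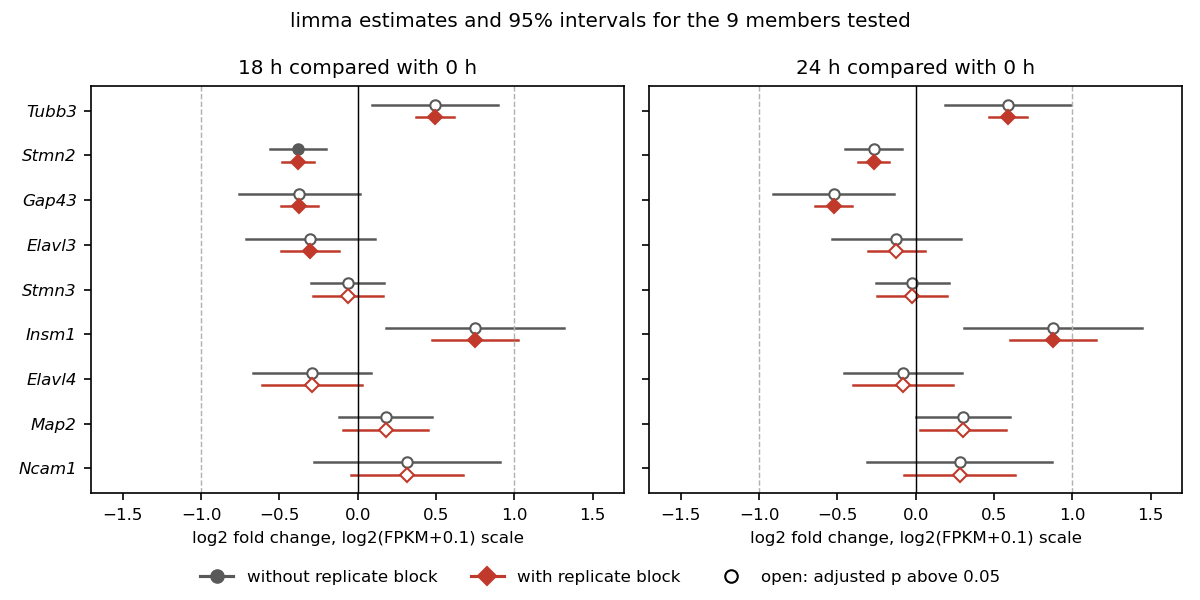
log2 fold changes of the 9 members tested (x axis, log2(FPKM+0.1) scale) with 95% intervals, from limma without (grey circles) and with (red diamonds) the replicate number as a block; filled symbols have an adjusted p of at most 0.05 and dashed lines mark the minimum fold. Tubb3 and Insm1 lie to the right at 0.59 and 0.88 at 24 h, Gap43 and Stmn2 to the left at -0.52 and -0.27, and the intervals are narrower with the block for each of them.

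Counted by their libraries, 3 members at 18 h (Tubb3, Map2 and Insm1) had every dox library above every 0 h library. At 24 h 4 did, the same 3 and Dcx, which is not among the genes tested. In 2 members at each time every dox library lay below (Stmn2 and Elavl4 at 18 h, Stmn2 and Gap43 at 24 h). Among all genes tested, 14.4% lay fully above and 13.7% fully below at 18 h, and 16.7% and 14.6% at 24 h.

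**Figure D3:**
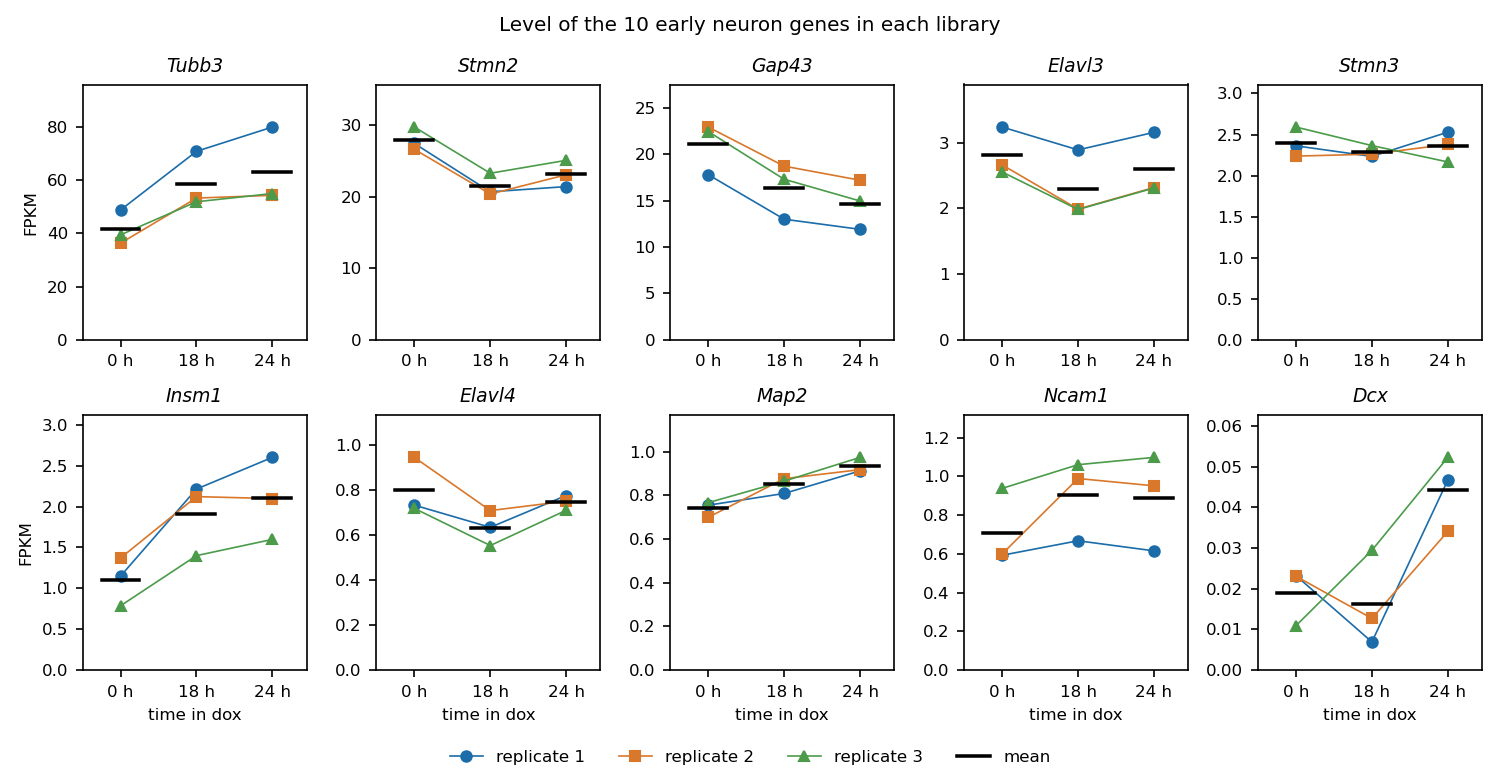
FPKM of each of the 10 members (y axes from 0, each with its own scale) by time in dox (x axis), with a coloured symbol and line for each of the 3 replicate numbers and a black bar for the mean. From 0 h to 18 h the 3 lines all go up for Tubb3 and Insm1 and all go down for Gap43 and Stmn2, and replicate 1 stays highest for Tubb3, from 48.8 FPKM at 0 h to 80.0 FPKM at 24 h.

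Insm1, the transcription factor of the group, had the largest estimate of the 9 members tested. This gene is a single exon of 3100 bases at chr2:146221921-146225020 on the plus strand (GRCm38). It stood at 1.15, 1.37 and 0.786 FPKM in replicates 1, 2 and 3 at 0 h (85, 102 and 53 reads). It stood at 2.21, 2.12 and 1.40 FPKM at 18 h (157, 164 and 105 reads). It stood at 2.60, 2.10 and 1.60 FPKM at 24 h (205, 166 and 135 reads). Each dox library was higher than all 0 h libraries, although the lowest 18 h library, at 1.40 FPKM, barely exceeded the highest 0 h library. The mean was 1.74-fold higher at 18 h and 1.91-fold higher at 24 h, with log2 fold changes of 0.75 ± 0.25 (s.e.) and 0.88 ± 0.25. In limma neither passed without the block (adjusted p = 0.104 and 0.0534), and both did with it (adjusted p = 0.00640 and 0.00294). On recovered reads without a block the adjusted p was 0.0641 and 0.0281 in edgeR and 0.0223 and 0.00478 in DESeq2. The 95% interval at 24 h, 0.31 to 1.44 without the block, includes the minimum fold. Over all alternatives tried, the log2 fold change ranged from 0.468 to 0.947 at 18 h and from 0.557 to 1.051 at 24 h.

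Of the cytoskeletal members, Tubb3 was the one whose higher level passed the adjusted p in limma with the block. It lies at chr8:123411424-123422015 on the plus strand, in 4 exons. Tubb3 was at 48.8, 36.3 and 39.5 FPKM at 0 h, in replicates 1, 2 and 3, from 2175, 1629 and 1603 reads. It was at 70.9, 53.3 and 51.9 FPKM at 18 h and at 80.0, 54.4 and 55.0 FPKM at 24 h. All 6 dox libraries exceeded all 0 h libraries, and replicate 1 was far above the others at each time. The mean was 1.41-fold higher at 18 h and 1.52-fold higher at 24 h, and the log2 fold changes were 0.49 ± 0.18 (s.e.) and 0.59 ± 0.18. The adjusted p in limma was 0.124 and 0.0638 without the block and 0.00167 and 0.000739 with it, and without a block it was 0.0702 and 0.0281 in edgeR and 0.0267 and 0.00478 in DESeq2. Within replicates 1, 2 and 3 the log2 difference from the 0 h library was 0.71, 0.58 and 0.48 at 24 h. Gm20388, a gene model on the same strand that overlaps Tubb3, was listed at 0 in all libraries.

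The microtubule-associated protein gene Map2 (chr1:66175273-66442583, plus strand), whose product marks dendrites, showed an ordered but small difference. It was at 0.754, 0.699 and 0.766 FPKM at 0 h, from 274 to 296 reads. It was at 0.808, 0.876 and 0.864 FPKM at 18 h and at 0.912, 0.917 and 0.973 FPKM at 24 h. No library of one time overlapped those of another. The 24 h mean was 1.26-fold the 0 h mean. The log2 fold change, 0.30 ± 0.13 (s.e.), passed neither without the block (adjusted p = 0.177) nor with it (adjusted p = 0.10003). On recovered reads the log2 fold change was 0.33 in edgeR, with an adjusted p of 0.0509, or 0.00735 with the block, and 0.32 in DESeq2, with an adjusted p of 0.0305.

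Dcx (chrX:143855842-143933311, minus strand) remained near the limit of detection. It was covered by 7, 7 and 3 reads in the 0 h libraries, by 2, 4 and 9 in the 18 h libraries and by 15, 11 and 18 in the 24 h libraries. In FPKM, the 24 h libraries lay between 0.0341 and 0.0523 and all other libraries between 0.00692 and 0.0294, so the 24 h libraries were the highest of the 9. The mean at 24 h was 2.33-fold that at 0 h. The difference was not called in edgeR (log2 fold change 1.18, adjusted p = 0.127, or 0.0814 with the block) or in DESeq2 (adjusted p = 0.221).

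The stathmins did not follow Tubb3. Stmn2 (chr3:8509360-8561606, plus strand) stood at 27.5, 26.6 and 29.8 FPKM at 0 h, from 3582 to 3668 reads. It stood at 20.7, 20.4 and 23.3 FPKM at 18 h and at 21.4, 23.1 and 25.1 FPKM at 24 h. Every dox library was below every 0 h library. Stmn2 fell by 0.38 ± 0.08 on the log2 scale (s.e.) at 18 h, to 0.768 of the 0 h mean, and was the one member to pass the adjusted p in limma without the block (adjusted p = 0.0231, and 0.00211 with it). Without the block, Stmn2 no longer passed when replicate 1 or 3 of 0 h or replicate 1 or 2 of 18 h was left out. Nor did it pass when only the 18 h and 0 h libraries were fitted. At 24 h the log2 fold change was -0.27 ± 0.08, with an adjusted p of 0.0596 without the block and 0.00527 with it, and of 0.0369 in edgeR and 0.0137 in DESeq2 without a block.

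Stmn3 (chr2:181306459-181314500, minus strand), a relative of Stmn2, had the smallest estimates in size against 0 h among the 9 members tested. Its 9 libraries lay between 2.17 and 2.59 FPKM, from 58 to 73 reads, and the time points overlapped. The log2 fold change was -0.06 at 18 h (95% interval -0.30 to 0.17) and -0.02 at 24 h (95% interval -0.26 to 0.21).

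At the growth cone, Gap43 was lower in dox. Gap43 (chr16:42248442-42340651, minus strand) stood at 17.8, 23.0 and 22.5 FPKM at 0 h, in replicates 1, 2 and 3, from 647, 839 and 744 reads. It stood at 13.01, 18.7 and 17.3 FPKM at 18 h and at 11.9, 17.2 and 14.97 FPKM at 24 h. The groups overlapped at 18 h and did not overlap at 24 h, and replicate 1 was the lowest at each time. The mean was 0.776 of the 0 h mean at 18 h and 0.697 at 24 h, with log2 fold changes of -0.37 ± 0.17 (s.e.) and -0.52 ± 0.17. The adjusted p in limma was 0.211 and 0.0798 without the block and 0.00373 and 0.000975 with it, and without a block it was 0.169 and 0.0439 in edgeR and 0.127 and 0.0129 in DESeq2. Each replicate was lower than its own 0 h library at both times, by 0.41 to 0.58 on the log2 scale at 24 h. With 1 library left out and no block, the 18 h estimate ranged from -0.488 to -0.217.

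Ncam1, the neural cell adhesion molecule gene (chr9:49502136-49798925, minus strand), moved little against its spread. It was at 0.593, 0.599 and 0.938 FPKM at 0 h, at 0.667, 0.989 and 1.06 FPKM at 18 h and at 0.615, 0.951 and 1.10 FPKM at 24 h. The time points overlapped, with replicate 1 among the lowest values at each. At 24 h the estimate was 0.28 ± 0.26 (log2 fold change ± s.e.), with an adjusted p of 0.524, or 0.216 with the block. With 1 library left out it ranged from 0.125 to 0.497 without the block and from 0.123 to 0.381 with it.

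The RNA-binding members had no estimate above 0 at either time. Elavl3 (chr9:22015005-22052023, minus strand) stood at 3.24, 2.66 and 2.55 FPKM at 0 h, at 2.89, 1.99 and 1.98 FPKM at 18 h and at 3.155, 2.32 and 2.31 FPKM at 24 h. Its time points overlapped, although each dox library was below the 0 h library with its number. At 18 h the estimate was -0.30 ± 0.18 (log2 fold change ± s.e.), with an adjusted p of 0.335 without the block and 0.0341 with it. With the block, Elavl3 passed the adjusted p in 1 of 9 fits that left out a library, the one without replicate 1 of 0 h. The adjusted p in these fits ranged from 0.0418 to 0.123. Elavl4 (chr4:110203722-110351909, minus strand) ranged from 0.717 to 0.944 FPKM at 0 h, from 0.552 to 0.708 FPKM at 18 h and from 0.709 to 0.774 FPKM at 24 h. Its 18 h libraries were all below the 0 h libraries and its 24 h libraries were not, and neither comparison passed (log2 fold changes -0.29 and -0.08, adjusted p = 0.312 and 0.795). With 1 library left out and no block, the 18 h estimate of Elavl3 ranged from -0.477 to -0.203. That of Elavl4 ranged from -0.367 to -0.179.

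Between 18 h and 24 h, 0 of 9 members were called, when 0.0223% of all genes tested were. At an unadjusted p below 0.05 there were 0 members without the block and 2 with it, beside 5.59% and 12.3% of all genes tested. edgeR and DESeq2 called 0 members, where edgeR called 0% and DESeq2 0.0155% of the genes each tested. The estimates ran from -0.15 for Gap43 to 0.21 for Elavl4. Map2, Elavl4 and Dcx had all 24 h libraries above all 18 h libraries, as had 6.81% of all genes tested, which do not include Dcx.

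Other neuron genes were examined in 6 lists that together hold 90 genes, of which 77 were tested. These lists were chosen with earlier results of these data known, so the share of their genes called is no support for them. At 18 h 3 of the 77 were called, all upward, and at 24 h 6 were called upward and 1 downward, or 3.90% and 9.09%, beside 2.06% and 2.9% of all genes tested. The median log2 fold change of the listed genes was -0.01 at 18 h and 0.04 at 24 h. Of the genes called, 1 at 18 h (Ebf2) and 3 at 24 h (Ebf2, Nhlh1 and Srrm4) had a 0 h mean below the filter of 0.1 FPKM. They were tested because of their dox libraries. Among the 72 listed genes at or above that filter at 0 h the calls were 2 and 4, or 2.78% and 5.56%. The share of all genes at or above it at 0 h was not computed, so no excess can be read from these 2 counts. Without replicate 1 of 0 h, 4 were called at 24 h, when 271 of all 17951 genes tested were called upward and 79 downward. With a pseudocount of 1 in place of 0.1, 0 listed genes were called at either time (0.668% and 0.841% of all genes tested), and edgeR called 7 at 18 h and 11 at 24 h (3.03% and 4.06% of all genes tested). With the replicate block 5 were called at 18 h, 4 upward and 1 downward, beside 2.82% of all genes tested. At 24 h 7 were called with the block, 6 upward and 1 downward, beside 3.51%.

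The adhesion and growth-cone list, which is nearest in role to Ncam1 and Gap43, had 3 of 12 tested genes called at 24 h, when 2.9% of all genes tested were. Nrcam, an adhesion molecule of axons, stood at 0.232, 0.352 and 0.497 FPKM at 0 h, at 0.883, 1.21 and 1.59 FPKM at 18 h and at 1.04, 1.35 and 1.25 FPKM at 24 h. It rose by 1.53 and 1.55 on the log2 scale (adjusted p = 0.0107 and 0.00837). Cntn2, a contactin of growing axons, rose by 1.18 at 18 h and 1.22 at 24 h (adjusted p = 0.00445 and 0.00288), from 0.509 ± 0.106 to 1.30 ± 0.101 FPKM at 24 h. St8sia2, which encodes a polysialyltransferase that modifies the Ncam1 protein, rose from 0.425 ± 0.126 to 1.02 ± 0.184 FPKM at 24 h (log2 fold change 1.10, adjusted p = 0.01995), a call lost without replicate 1 of 0 h or replicate 2 or 3 of 24 h. With a pseudocount of 1, Nrcam, Cntn2 and St8sia2 were not called at either time. L1cam, named after its values were seen, was lower at both times (log2 fold changes -0.68 and -0.59, adjusted p = 0.0303 and 0.0408).

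Among early neuron transcription factors, 7 of 15 passed the filter and 2 were called at 24 h, when 2.9% of all genes tested were. Ebf2, an early B-cell factor family gene, had 0, 4 and 0 reads without dox. It had 39, 25 and 32 reads after 18 h and 78, 47 and 37 after 24 h, and was called at both times (log2 fold changes 1.44 and 1.86, adjusted p = 0.0247 and 0.00770). Nhlh1, a helix-loop-helix gene, had 3, 3 and 2 reads without dox and 14, 11 and 21 after 24 h (log2 fold change 1.18, adjusted p = 0.0378). Both genes passed the filter through their dox libraries, and their calls are no support for the list. The call of Ebf2 at 18 h was lost without replicate 1 or 3 of 0 h or any 1 of the 18 h libraries, and with a pseudocount of 1. That of Nhlh1 at 24 h was lost without replicate 2 of 18 h or any 1 of the 0 h and 24 h libraries. It was also lost after quantile normalization, with a pseudocount of 0.01 or 1, and when only the 24 h and 0 h libraries were fitted. With a pseudocount of 1 the log2 fold changes of Ebf2 and Nhlh1 at 24 h were 0.36 and 0.24, and neither was called. Sox11, named after its values were seen, fell by 0.42 and 0.39 on the log2 scale (adjusted p = 0.0404 and 0.0408).

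In the RNA-binding and splicing list, 1 of 12 tested genes was called at 24 h, when 2.9% of all genes tested were. It was Srrm4, a splicing factor of neuronal microexons, which stood at 0.145, 0.0577 and 0.0956 FPKM at 0 h and at 0.745, 0.498 and 0.348 FPKM at 24 h (log2 fold change 1.63, adjusted p = 0.0132). Its 0 h mean was below the filter of 0.1 FPKM. Srrm4 was thus tested because of its dox libraries, and its call is no support for the list. With a pseudocount of 1 it was not called. Elavl2, a close relative of Elavl3 and Elavl4 that was named after its values were seen, rose at both times, from 3.48 to 5.73 and 5.98 FPKM (log2 fold changes 0.71 and 0.77, adjusted p = 0.0171 and 0.0102). This difference was below the minimum fold. By the adjusted p alone 1 gene of the list passed upward and 1 downward at 18 h, beside 4.27% and 3.72% of all genes tested. At 24 h 2 passed upward and 1 downward, beside 6.52% and 5.11%.

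In the cytoskeleton list 0 of 20 tested genes were called, and by the adjusted p alone 3 passed upward and 1 downward at 24 h, beside 6.52% and 5.11% of all genes tested. The most abundant was the alpha-tubulin gene Tuba1a, at 558 FPKM at 0 h and 679 FPKM at 24 h (log2 fold change 0.29, adjusted p = 0.0838, and 0.0188 with the block). Named after their values were seen, Map1b and Dpysl3 rose by 0.53 each at 24 h (adjusted p = 0.00434 and 0.00364), Dpysl2 by 0.55 (adjusted p = 0.0416), and the neurofilament gene Nefl fell by 0.84 (adjusted p = 0.0221).

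REST is a repressor that keeps many neuronal genes silent outside neurons. Of REST and 11 partners 0 were called, and by the adjusted p alone 1 passed upward and 2 downward at each time, beside 4.27% and 3.72% of all genes tested at 18 h and 6.52% and 5.11% at 24 h. Hdac1, the most abundant, was at 76.6 FPKM at 0 h and 68.7 FPKM at 24 h (log2 fold change -0.16, adjusted p = 0.106, and 0.0199 with the block). Rest, the namesake of the list, was at 22.5 and 20.1 FPKM (log2 fold change -0.16, adjusted p = 0.394, and 0.0237 with the block).

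In the synaptic and secretory list, 1 of 14 tested genes was called at 24 h, downward, when 2.9% of all genes tested were called in either direction. Syt4, a synaptotagmin, went from 2.33, 1.94 and 1.47 FPKM at 0 h to 1.21, 0.794 and 0.584 FPKM at 24 h (log2 fold change -1.10, adjusted p = 0.0387). That call was lost without replicate 1 or 2 of 0 h, replicate 2 of 18 h or replicate 2 or 3 of 24 h. It was also lost with no filter, with a pseudocount of 1, and when only the 24 h and 0 h libraries were fitted. In limma with the block Syt4 was also called at 24 h (adjusted p = 0.00181). It was called in each blocked fit with a library left out (adjusted p = 0.00454 to 0.0146). At 18 h Syt4 was the 1 gene of the list called with the block, downward, when 2.82% of all genes tested were called in either direction. Its log2 fold change there was -1.0006, at the edge of the minimum fold. By the adjusted p alone 2 genes of the list passed upward and 1 downward at 24 h, beside 6.52% and 5.11% of all genes tested, and the median log2 fold change was 0.20, beside 0.00403 over all genes tested. At 18 h 0 passed in either direction, beside 4.27% upward and 3.72% downward of all genes tested. The 18 h median was -0.02, beside -0.00303.

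**Figure D4:**
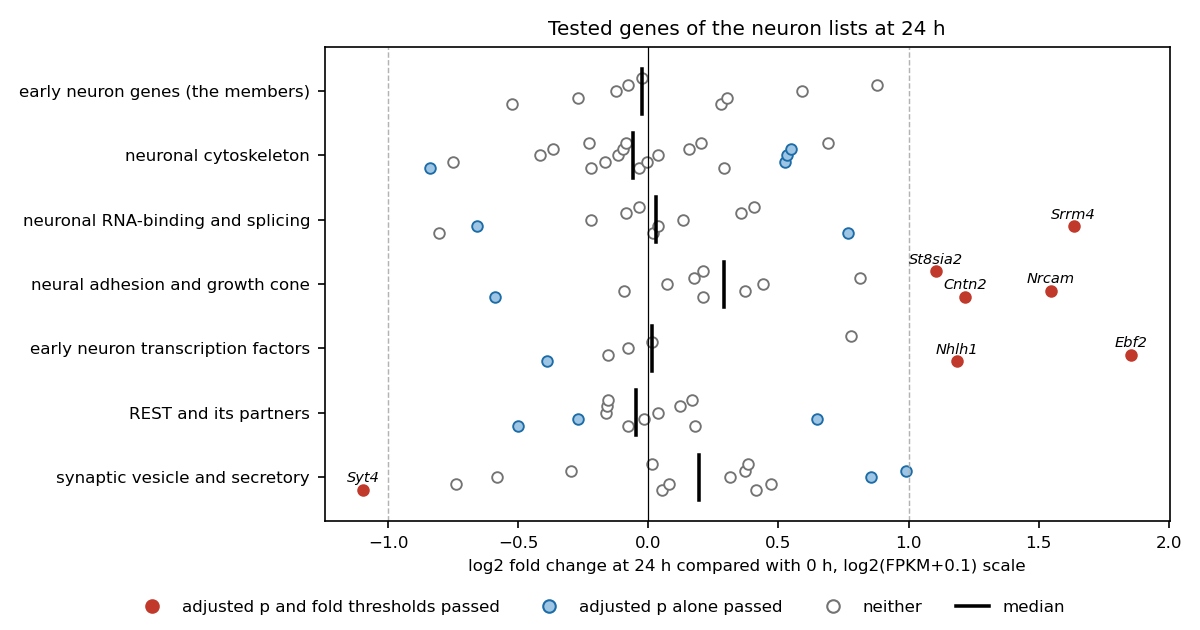
Change from 0 h to 24 h (x axis, log2 fold change on the log2(FPKM+0.1) scale) of the tested genes of each list (rows), with red, blue and open circles for genes past both thresholds, past the adjusted p alone and past neither, and a bar at each median. The members lie between -0.52 and 0.88 around a median of -0.02, and the 7 genes past both thresholds are 6 upward, from St8sia2 at 1.10 to Ebf2 at 1.86, and Syt4 at -1.10.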

How the data were processed

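RNA of 9 ESC libraries was sequenced by the authors from stranded polyadenylated libraries (Illumina HiSeq4000) and aligned with STAR to GRCm38. The submitters' processing notes name cutadapt 1.9 and edgeR 3.16.5. The authors deposited FPKM values for 47729 genes, and for 19210 genes a per-library signal, namely CPM rescaled by an effective library size. Its values were whole multiples of 1 read in every library (100% of values, within 0.01 of a whole number), so reads could be recovered. The authors' mean CPM, fold changes, p-values and false discovery rates hold their own findings and were not used.

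Expression was tested with limma 3.58.1 (intensity trend, R 4.3.3) on log2(FPKM+0.1). The 17951 genes whose mean FPKM reached 0.1 were tested in 1 fit to the 9 libraries without a block, with Benjamini–Hochberg adjustment. Calls required an adjusted p not above 0.05 and a log2 fold change of 1 or more in either direction, and a fold change on this scale understates that of low genes. The groups share the replicate numbers 1, 2 and 3, and deviations from the group means correlated in all 9 same-numbered pairs (r = 0.211 to 0.548 across 11893 genes, which are not independent), so the numbers were taken to pair the libraries from the data, as the labels give no further source. Comparisons at 18 h and 24 h share the 0 h libraries. Replicates of a time point differed by more than sampling noise (chi-square over degrees of freedom 5.39 to 16.3), and all were used.

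edgeR 4.0.16 and DESeq2 1.42.0 were run on the recovered reads, which with other pseudocounts, filters, scalings and libraries left out are the alternatives tried. Coordinates and exons came from GENCODE M21 (GRCm38) and promoter windows from RefSeq (GRCm38.p6). Every member was named, and from each list the genes called at 18 h or 24 h or otherwise the most abundant. Outside this rule, Rest was named as the namesake of its list. L1cam, Sox11, Elavl2, Map1b, Dpysl3, Dpysl2 and Nefl were named after their values were seen. No member was called, so no genes of like pattern were named. Members, lists and markers were chosen with earlier results of these data known. Scripts were tested on simulated data. Tables and plots used Python 3.11.15, pandas 2.3.3 and matplotlib 3.10.9.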

Additional observations from a re-analysis of the deposited data

How the results depend on the processing

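With both thresholds applied, the count of members called was 0 in each comparison under every alternative tried that keeps a minimum fold. Without the minimum fold 1 member, Stmn2, passed at 18 h. By the adjusted p alone, a count added after the data were examined, the members at 18 h numbered 1 in the fit reported, 0 with only the time points compared, 0 to 1 with a library left out, 3 in DESeq2, and 5 both with the replicate block and in edgeR with the replicate block. At 24 h they numbered 0 in the fit reported, 1 after quantile normalization, 2 after median centring, 3 at a mean FPKM of at least 1, 4 with the replicate block and in edgeR, and 5 in edgeR with the replicate block and in DESeq2. The share of all genes tested that passed moved as well, from 7.98% at 18 h in the fit reported to 3.35% with only the time points compared, 15.5% in DESeq2, 21.6% with the block and 27% in edgeR with the block, and from 11.6% at 24 h to 9.92% after quantile normalization, 13.6% after median centring, 17.1% at a mean FPKM of at least 1, 26.1% with the block, 14% in edgeR, 31.4% in edgeR with the block and 19.1% in DESeq2. Leaving out a library from the blocked fit, also added later, gave 4 to 5 members at 18 h and 4 at 24 h, when 9.04% to 20.1% and 13.8% to 22.3% of all genes tested passed. In limma the block changed no call of a member by both thresholds. Listed genes called at 18 h numbered 3 in the fit reported, 0 with a pseudocount of 1, 1 at a mean FPKM of at least 1, 5 with the replicate block, 3 to 5 in the blocked fit with a library left out, 7 in edgeR and in DESeq2, 9 in edgeR with the replicate block and 13 without a minimum fold. Listed genes called at 24 h numbered 7 in the fit reported, 0 with a pseudocount of 1, 2 at a mean FPKM of at least 1, 11 in edgeR, 14 in edgeR with the replicate block, 20 without a minimum fold and 4 without replicate 1 of 0 h. The share of all genes tested was then 2.9% in the fit reported, 0.841% with a pseudocount of 1 and 2.23% at a mean FPKM of at least 1. It was 4.06% in edgeR, 5.3% in edgeR with the block and 11.6% without a minimum fold. Without replicate 1 of 0 h, 271 of 17951 genes were called upward and 79 downward. The cause of these shifts was not tested. Estimates close to 0 turned sign when single libraries were left out, with or without the block. They ranged for Stmn3 from -0.110 to 0.00888 at 18 h and from -0.0849 to 0.0744 at 24 h, and for Elavl4 from -0.145 to 0.0336 at 24 h. At 24 h compared with 18 h they ranged for Tubb3 from -0.0874 to 0.239, for Insm1 from -0.0697 to 0.303, for Stmn3 from -0.0216 to 0.138 and for Ncam1 from -0.219 to 0.181, and Stmn3 there was at -0.00546 after quantile normalization. Median centring of the libraries moved the genes that passed the adjusted p alone at 24 h from 1171 up and 917 down to 839 up and 1598 down, and at 18 h from 766 and 667 to 623 and 841. Depth limits Dcx, with 2 to 18 reads per library.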
